A study of Homo sapiens with 2 samples.

Results

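The factors that start, extend and end the translation of mRNA were examined in HepG2 cells under fluid shear stress (FSS). Genes were taken by symbol alone, as EIF followed by a number, EEF1 or EEF2 with any letters or numbers after it, and ETF1 and GSPT1. This gave 65 of the 11589 gene symbols in the transcript table, with 296 of its 34714 transcripts, and all 65 passed the filter of 0.5 FPKM in at least 1 library. No antisense or readthrough row was taken by the rule. HepG2 is an established human line that grew out of a liver tumour. The FSS library came from HepG2 cells exposed to flowing medium for 8 h, the static library from control cells kept without flow, and both groups were at passage 10 to 15. The groups shared the same medium with serum, penicillin and streptomycin, and each library was a single mix of 3 replicates. FPKM is the number of fragments per kilobase of transcript and per 1000000 mapped fragments, and a gene's value is the sum over its transcripts.

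With 1 library per group no spread between replicates could be measured, so no test and no p-value is given. The size of each difference is given as a log2 ratio, that of FPKM + 1 under FSS over FPKM + 1 in static culture. A gene was called higher or lower at 1.5-fold on that scale, where differences between low values come out too small. The listed FPKM summed to 325712 in the static library and 323352 in the FSS library, with a read depth that is not known. Among the 7898 genes with at least 5 FPKM the median log2 ratio was -0.23, and centred values are those after this shift was subtracted. Few liver markers could be used to check the cells. Of 17 hepatocyte markers only 5 were listed and 3 passed the filter. Those not listed, among them ALB, AFP, APOA1, TTR and SERPINA1, had no value in either library. FOXA1 had 5.69 FPKM in static culture against 7.41 FPKM under FSS. CEBPA went from 2.15 to 0.755 FPKM, and VTN fell from 1.92 to 1.10 FPKM. AMBP and ASGR1, listed at 0 in static cells, stayed under the filter in FSS cells, with 0.058 and 0.176 FPKM. The fibroblast markers COL1A1 and LUM, with 28.0 and 11.9 FPKM, were above all of these in static cells. Under FSS they had 5.15 and 6.71 FPKM, below FOXA1. These markers could therefore not show that the cells were of liver origin. Markers of other cell types summed to 0.818 and 0.634 FPKM for endothelium (1 of 4 markers), 1.70 and 6.06 FPKM for leukocytes (2 of 4) and 41.7 and 12.2 FPKM for fibroblasts (3 of 5), and the part of such cells in the values below was not tested. In bulk RNA, fewer cells of a type and less RNA per cell cannot be told apart.

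Translation starts when eIF2 carries the initiator tRNA to the small ribosomal subunit, which eIF3, eIF1 and eIF1A prepare and which the cap-binding eIF4 factors load onto mRNA. eIF5 and eIF5B then let the large subunit join, eEF1 and eEF2 carry the ribosome along the coding sequence, and the release factors eRF1 and eRF3 free the finished protein. When a stress kinase phosphorylates eIF2, the exchange factor eIF2B is blocked and most initiation slows while a few stress mRNAs are favoured. The mRNAs of elongation factors and of several initiation factors belong to the TOP class in vertebrates, whose first base is a C followed by a run of pyrimidines, and their translation is controlled through mTORC1 and LARP1.

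The annotated transcript starts are shown first, to let elongation and other factors be read beside the start codon factors, and the genes in the lines were picked with their values known. In each line the 12 bases before the RefSeq start are in lower case and the first 18 transcribed bases are in capitals.
EEF1A1: gccgtgaacgttCTTTTTCGCAACGGGTTT
EEF2: gacgtcagcgttCTCTTCCGCCGTCGTCGC
EEF1B2: gtctcttcgggtCCTTTTTCCTCTCTTCAG
EIF4B: cctcatccgggtCTTTTGCGTTCTCTTTCC
EIF3D: cgcgcatgtttcCTCTTTTCCTGGTTTCTC
EEF1G: cccgggcggcttACTTTGCGGCAGCGCCGA
EIF1: caccgcccctctGCCCCAGTCACTGAGCCG
EIF1B: gccattttgtgcGAGAAGCCGCAGCGCCGC
EIF1AX: aagagtcgcggcGCCATTTGCTGCCGCCGA

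These windows lie in the build GRCh38.p14, which is not the hg19 build used for the FPKM. EEF1A1 is at chr6:73521015-73521044 on the minus strand, EEF2 at chr19:3985446-3985475 on the minus strand, EEF1B2 at chr2:206159883-206159912 on the plus strand and EIF4B at chr12:53006444-53006473 on the plus strand. EIF3D is at chr22:36529149-36529178 on the minus strand and EEF1G at chr11:62573874-62573903 on the minus strand. EIF1 is at chr17:41688873-41688902 on the plus strand, EIF1B at chr3:40309695-40309724 on the plus strand and EIF1AX at chrX:20141821-20141850 on the minus strand. EEF1A1, EEF2, EEF1B2, EIF4B and EIF3D opened with a C and at least 4 pyrimidines, whereas EIF1, EIF1B and EIF1AX opened with a G. EEF1G opened with an A, and its C and 3 pyrimidines came after that base, so it was not counted as a match. A further annotated start of EEF1B2 did not open this way.

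Taken as a whole, the translation factors were spread to both sides. Of the 47 initiation genes 7 were higher and 9 lower, of the 7 elongation factors 0 and 3, and both release factors were higher. Of 65 members 10 were at least 1.5-fold higher in FSS, or 15.4%, beside 10.5% of the 11221 genes past the filter. At the other side 16 members were at least 1.5-fold lower, or 24.6%, beside 29.5% of all genes. The median log2 ratio of the members was -0.15 beside -0.25 for all genes. After centring 13 members were higher and 8 lower, beside 17.8% and 17.9% of all genes, so the balance between higher and lower members turned with the centring. None of these shares of members lay far from the background, and the differences below are those of single complexes and genes. Among the 60 members with at least 5 FPKM 8 were higher and 16 lower, beside 11.5% and 29.4% of the 7898 genes at that level. The members held 2.36% of the listed FPKM in static cells and 1.89% in FSS cells, as 7684 and 6106 FPKM. EEF1A1 alone made up much of that difference, since without it the sums were 5535 and 5029 FPKM.

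**Figure D1:**
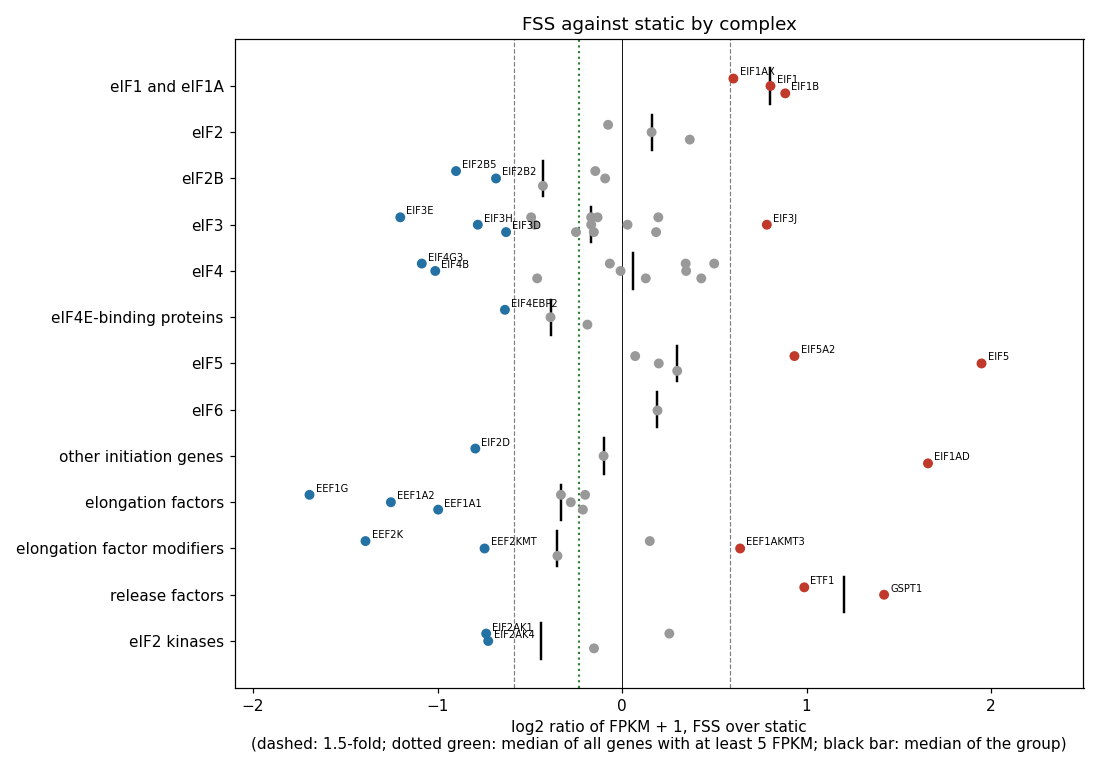
Each point is the log2 ratio, FSS over static, of FPKM + 1 for 1 gene, placed in the row of its complex, with red for at least 1.5-fold higher and blue for at least 1.5-fold lower. The 3 eIF1 and eIF1A genes and the 2 release factors lie right of the upper dashed line, and all 7 elongation factors lie left of 0, although EEF1B2 and EEF1D do not after centring.

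**Figure D2:**
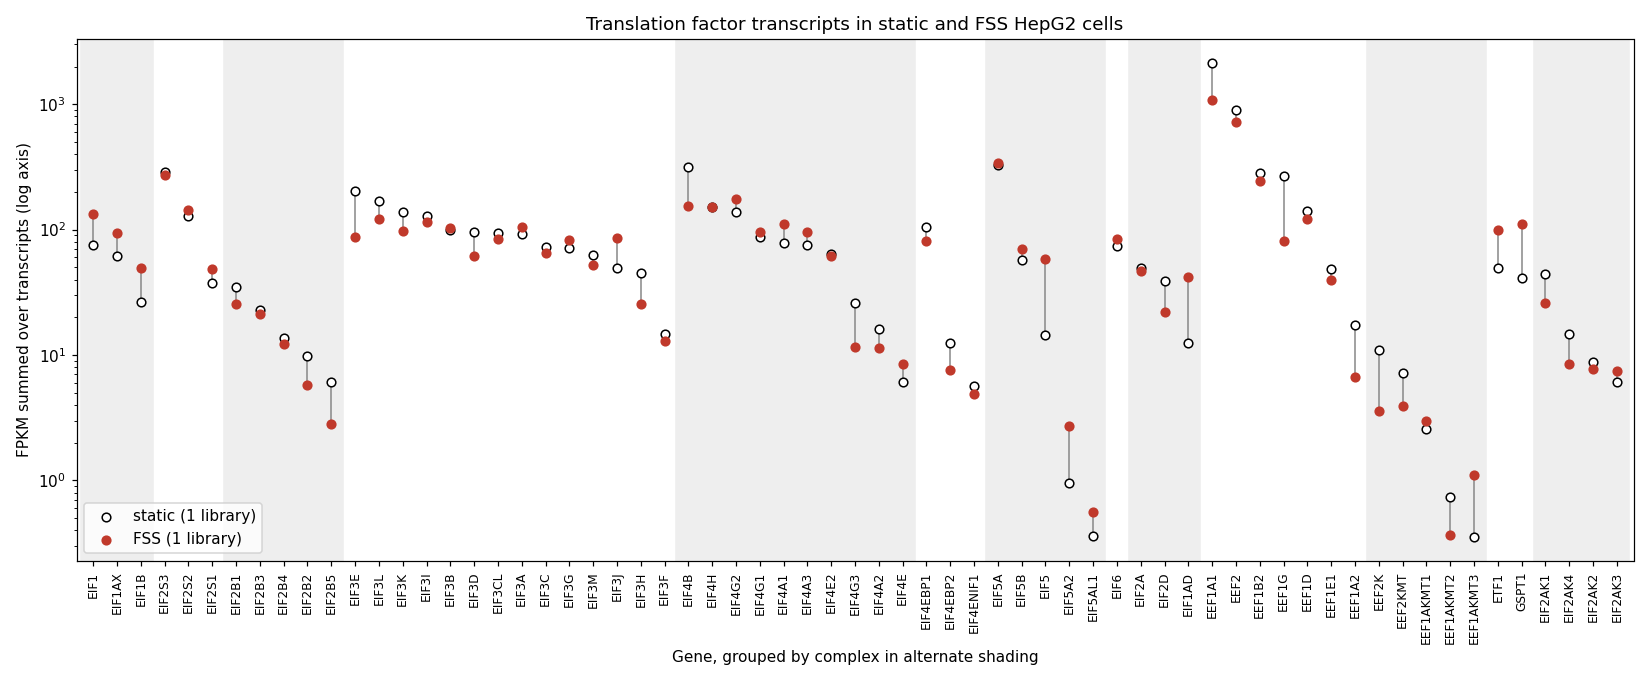
FPKM of each of the 65 genes on a log axis, with an open point for the static library and a red point for the FSS library, grouped by complex. EEF1A1 and EEF2 are the highest genes in both libraries, and the widest gaps include EIF5, GSPT1, EIF1AD and EEF1G.

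EIF1, EIF1B, EIF1AX and EIF5, which act in the choice of the start codon, were all higher in FSS, beside 10.5% of all genes. Their summed level was 178 and 334 FPKM. EIF5 was joined to the 3 eIF1 and eIF1A genes with the values known, and the eIF2 subunits were left out, so the count of 4 is a description only. eIF1 and eIF1A keep the scanning subunit open until it meets a start codon. EIF1 (ENSG00000173812) had 75.4 FPKM in static culture against 132 FPKM under FSS (log2 ratio 0.80). EIF1B, its close paralog, was at 26.6 and 49.9 FPKM (log2 ratio 0.88). EIF1AX, which encodes eIF1A, was at 61.1 and 93.3 FPKM (log2 ratio 0.60). All 3 were called, and EIF1AX stood just past the limit, since it was at 0.57 with a pseudocount of 5. EIF1 was at 0.54, within the limit, when its highest transcript replaced the sum. The ratio of EIF1 to EIF1B was 2.84 in static cells and 2.66 in FSS cells, so the paralogs kept close to their relative levels. Reads that fit both paralogs may have been divided between them.

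EIF5 (ENSG00000100664) had the highest log2 ratio of all members. It encodes the GTPase activator that acts on eIF2 once a start codon is found, and it works against eIF1 in how strictly that codon is judged. EIF5 had 14.5 FPKM in static culture against 58.7 FPKM under FSS (log2 ratio 1.95), or 3.86-fold. Its level relative to EIF1 was 0.192 in static cells and 0.443 in FSS cells. Both of its main transcripts were higher, EIF5-201 from 6.40 to 19.7 FPKM and EIF5-205 from 6.10 to 28.8 FPKM, and both encode the same length of 431 residues in GENCODE 29. EIF5B, the GTPase of subunit joining, was at 56.8 and 70.1 FPKM, and EIF6, which keeps the large subunit from joining early, at 73.9 and 84.3 FPKM, and both stayed within 1.5-fold.

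EIF5A, the hypusine-carrying factor that helps ribosomes past difficult peptide bonds, was the third most abundant member and was nearly level, at 325 and 342 FPKM. Its paralog EIF5A2 was low, with 0.957 FPKM in static culture against 2.74 FPKM under FSS (log2 ratio 0.93, or 0.38 with a pseudocount of 5). EIF5AL1, a copy of EIF5A whose own reads are uncertain, was at 0.360 and 0.560 FPKM. Of the 5 genes of this group 2 were higher and 0 lower, beside 10.5% and 29.5% of all genes. All 5 had a log2 ratio above 0.

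eIF2 itself was close to level, and its exchange factor eIF2B was on the lower side. The eIF2 subunits EIF2S1 (alpha, the site of stress phosphorylation), EIF2S2 (beta) and EIF2S3 (gamma) were at 37.3, 129 and 289 FPKM without flow and at 48.3, 144 and 274 FPKM under FSS. None of these 3 passed 1.5-fold as deposited, with log2 ratios of 0.37, 0.16 and -0.08, and EIF2S1 passed it after centring, at 0.60. All 5 eIF2B subunits had log2 ratios below 0 as deposited, where the median of all genes was -0.25. EIF2B3 and EIF2B4 were above 0 after centring. The median of the 5 was -0.43, or -0.20 after centring. As deposited 2 of 5 were lower, beside 29.5% of all genes, and after centring 1, beside 17.9%. EIF2B5, which encodes the catalytic epsilon subunit, was the lowest of the 5 at 6.13 and 2.82 FPKM (log2 ratio -0.90). EIF2B2 (beta) was at 9.81 and 5.73 FPKM (log2 ratio -0.68, centred -0.45). With a pseudocount of 5 the ratios of EIF2B5 and EIF2B2 were -0.51 and -0.46, within the limit. EIF2B1, EIF2B3 and EIF2B4 had log2 ratios of -0.43, -0.09 and -0.15.

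The 4 eIF2 kinases, kept apart here, were modest in level and none was called higher. EIF2AK1, which encodes the heme-sensing kinase HRI, was the most abundant, with 43.96 FPKM in static culture against 25.98 FPKM under FSS (log2 ratio -0.74). EIF2AK4, which encodes GCN2, the kinase that senses uncharged tRNA, was at 14.7 and 8.50 FPKM (log2 ratio -0.73). EIF2AK2, which encodes the double-stranded RNA sensor PKR, was at 8.76 and 7.78 FPKM. EIF2AK3, which encodes the ER stress kinase PERK, was at 6.14 and 7.52 FPKM (log2 ratio 0.26). So 2 of 4 were lower as deposited, beside 29.5% of all genes. After centring 0 of 4 were lower, beside 17.9%, with EIF2AK1 and EIF2AK4 at -0.50 and -0.49. These values are transcript levels and carry no information on kinase activity.

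The subunits of eIF3, the largest initiation complex, mostly stayed within 1.5-fold, with EIF3J higher and EIF3E, EIF3H and EIF3D lower. Of 14 genes 1 was higher and 3 lower, or 7.14% and 21.4%, beside 10.5% and 29.5% of all genes. When centred 1 was higher and 1 lower, beside 17.8% and 17.9%. The median log2 ratio was -0.17, or 0.06 when centred. EIF3J, a loosely bound subunit that helps in recycling of ribosomes, had 49.7 FPKM in static culture against 86.4 FPKM under FSS (log2 ratio 0.78). That ratio was 0.14 when the highest transcript replaced the sum. EIF3E was the most abundant eIF3 gene of the static library, at 203 FPKM, against 87.8 FPKM under FSS (log2 ratio -1.20). EIF3H was at 44.7 and 25.6 FPKM (log2 ratio -0.78). EIF3D, which can itself bind the cap of some mRNAs, was at 95.6 and 61.5 FPKM (log2 ratio -0.63). EIF3E kept its call after centring, at -0.97, while EIF3H and EIF3D were at -0.55 and -0.40.

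The scaffold subunits EIF3A and EIF3B were nearly level, at 91.5 and 100.1 FPKM in static cells and 104 and 102 FPKM in FSS cells. EIF3C and EIF3CL are near-identical copies and a read may fit either, so their sum is the safer value, at 167 and 149 FPKM. EIF3L and EIF3K, which bind each other at the edge of the complex, had log2 ratios of -0.47 and -0.49. The remaining subunits EIF3F, EIF3G, EIF3I and EIF3M lay between -0.25 and 0.20. When the highest transcript replaced the sum, EIF3G turned from 0.20 to -0.63 and EIF3F from -0.17 to 0.29, and EIF3C and EIF3K were also called lower, at -1.14 and -0.998. EIF3F was the lowest eIF3 gene in both libraries, at 14.7 and 13.02 FPKM. Where EIF3E led the complex in static cells, EIF3L was the highest in FSS cells, at 121 FPKM.

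The eIF4 group binds the cap, unwinds the mRNA leader and bridges to the ribosome. As deposited 0 of its 10 genes were higher and 2 lower, beside 10.5% and 29.5% of all genes. After centring 2 were higher and 2 lower, beside 17.8% and 17.9%. EIF4B, a cofactor that stimulates the helicase, was the fourth most abundant member at 314 FPKM in static culture and was at 155 FPKM under FSS, a log2 ratio of -1.01. EIF4H, which has a similar cofactor role, was at 152 and 151 FPKM. The helicase EIF4A1 was at 78.2 and 111 FPKM (log2 ratio 0.50, centred 0.73), and its paralog EIF4A2 was at 16.1 and 11.4 FPKM. EIF4A1 was therefore 4.86 times the level of EIF4A2 in static cells and 9.72 times in FSS cells. EIF4A3, which belongs to the exon junction complex rather than to initiation, was at 75.3 and 96.0 FPKM.

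Of the scaffolds of the eIF4 group only EIF4G3 passed 1.5-fold, downwards. EIF4G3 had 25.8 FPKM in static culture against 11.6 FPKM under FSS (log2 ratio -1.09). EIF4G1, the main scaffold, was at 87.5 and 95.7 FPKM, and EIF4G2, a relative that lacks the site for eIF4E, at 137 and 174 FPKM. EIF4G2 was thus the sixth most abundant member in FSS cells, up from the thirteenth in static cells. EIF4G1 and EIF4G2 had log2 ratios of 0.13 and 0.34, within 1.5-fold. The ratio of EIF4G2 was 0.69, past that limit, when its highest transcript replaced the sum. The cap-binding protein EIF4E was low, at 6.07 and 8.52 FPKM (log2 ratio 0.43, centred 0.66). Its relative EIF4E2 was at 64.3 and 61.3 FPKM.

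The eIF4E-binding proteins restrain eIF4E when mTORC1 is inactive. EIF4EBP1 was at 106 and 80.5 FPKM (log2 ratio -0.39), and its level was 17.4 times that of EIF4E in static cells and 9.45 times in FSS cells. EIF4EBP2 was at 12.4 and 7.63 FPKM (log2 ratio -0.64, centred -0.40). EIF4ENIF1, which carries eIF4E into the nucleus, was at 5.69 and 4.87 FPKM.

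Of 3 genes with an initiation factor name but a role apart from the main path, 1 was higher and 1 lower. Over all genes these shares were 10.5% and 29.5%. EIF1AD, a protein with an eIF1A-like domain, had 12.5 FPKM in static culture against 41.7 FPKM under FSS (log2 ratio 1.66). EIF2D, which can place tRNA without eIF2 and takes part in recycling, was at 39.3 and 22.2 FPKM (log2 ratio -0.80, centred -0.56). EIF2A, which can bring the initiator tRNA in an alternative way, was at 49.8 and 46.4 FPKM.

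Of the 7 elongation factors 3 were at least 1.5-fold lower in FSS and 0 higher, as deposited and after centring alike, and these were EEF1A1, EEF1A2 and EEF1G. That is 42.9% lower, beside 29.5% of all genes as deposited and 17.9% centred. All 7 had a log2 ratio below 0 as deposited, where the median of all genes was -0.25, but EEF1B2 and EEF1D did not after centring. Their summed level was 3805 FPKM in static culture and 2287 FPKM under FSS. EEF1A1 (ENSG00000156508), which delivers aminoacyl-tRNA to the ribosome, was the highest member in both libraries, at 2149 and 1077 FPKM (log2 ratio -0.997). It ranked 9 among all genes in static cells and 22 in FSS cells. EEF1G, which anchors the exchange factor complex of eEF1A, had the lowest log2 ratio of all members, from 267 to 81.7 FPKM, or -1.69. EEF1A2, the tissue-restricted form of eEF1A, was at 17.3 and 6.69 FPKM (log2 ratio -1.25). EEF1A1 has many processed copies in the genome, and reads shared with them or with EEF1A2 make its value uncertain.

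The other elongation factors stayed within 1.5-fold. EEF2, the translocase, had 900.4 FPKM in static culture against 715 FPKM under FSS (log2 ratio -0.33). EEF1B2 and EEF1D, the exchange factors that recharge eEF1A with GTP, were at 282 and 141 FPKM without flow and at 245 and 122 FPKM in FSS cells. Their log2 ratios of -0.20 and -0.21 were 0.03 and 0.02 after centring. EEF1E1, a partner of the tRNA synthetase complex in spite of its name, was at 48.7 and 40.0 FPKM. The level of EEF1A1 was 8.06 times that of EEF1G in static cells and 13.2 times in FSS cells, and 2.39 and 1.51 times that of EEF2.

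Enzymes that modify elongation factors were low. EEF2K, the kinase that inhibits eEF2, had 11.1 FPKM in static culture against 3.60 FPKM under FSS (log2 ratio -1.39). EEF2KMT, a lysine methyltransferase of eEF2, was at 7.25 and 3.92 FPKM (log2 ratio -0.75, centred -0.51). EEF1AKMT1, EEF1AKMT2 and EEF1AKMT3, lysine methyltransferases of eEF1A, were under 3 FPKM in both libraries. EEF1AKMT3 was called higher, from 0.353 to 1.11 FPKM, and that call was lost with a pseudocount of 5 and with the highest transcript.

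Both release factors were higher in FSS, beside 10.5% of all genes. ETF1 (ENSG00000120705), which encodes eRF1, the protein that reads all stop codons, had 49.5 FPKM in static culture against 99.1 FPKM under FSS (log2 ratio 0.99). GSPT1 (ENSG00000103342), which encodes eRF3a, the GTPase partner of eRF1, was at 41.0 and 111 FPKM (log2 ratio 1.42). The partners were thus at a ratio of 1.21 in static cells and 0.889 in FSS cells, and both kept their calls after centring, at 1.22 and 1.65. With the highest transcript of each library, GSPT1-202 in static cells and GSPT1-206 in FSS cells, the log2 ratio of GSPT1 was 2.12. It is thus not the ratio of a single transcript.

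**Figure D3:**
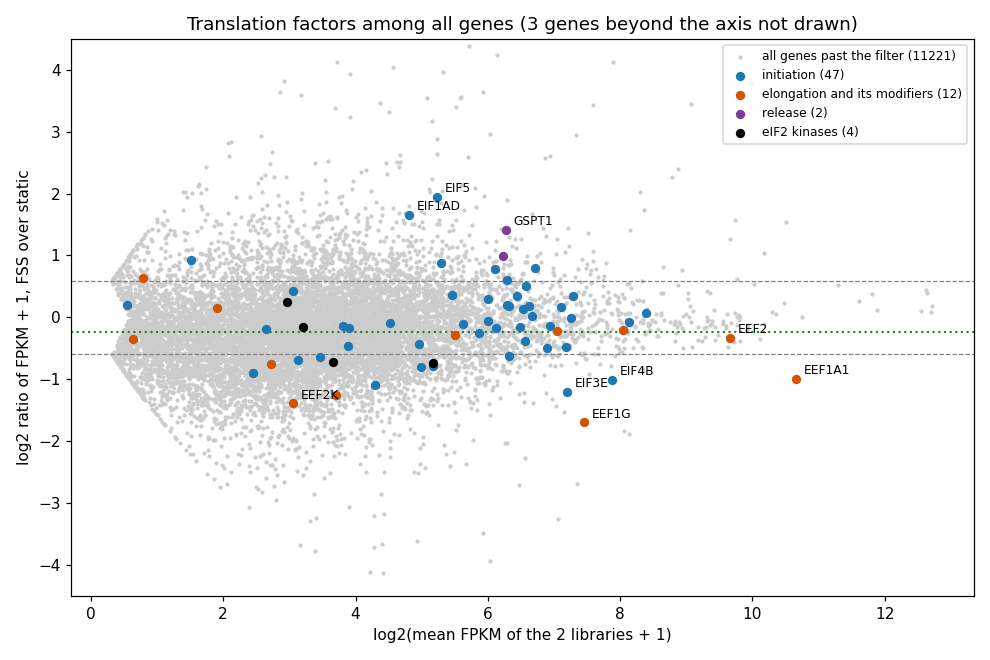
Each grey point is a gene past the filter, with the log2 of its mean FPKM + 1 on the horizontal axis and the log2 ratio of FSS over static on the vertical axis, and coloured points are the 65 members by stage. EEF1A1, EEF1G, EIF4B and EIF3E lie below the lower dashed line among abundant genes, and EIF5, EIF1AD and GSPT1 above the upper one.

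The transcript level showed a further layer, since several genes with a modest summed ratio had transcripts that went opposite ways. Of the 296 member transcripts 295 matched a transcript of the same gene by name in GENCODE 29, and 294 of these are protein coding there. Transcript numbers can shift between annotation releases, and StringTie splits reads of shared exons by estimate. There were 31 members with at least 2 transcripts at 5 FPKM or more. In 15 of them, or 48.4%, one transcript passed 1.5-fold upwards while another passed it downwards, beside 26.1% of the 2088 genes of the table with at least 2 such transcripts. The members had a mean of 3.65 such transcripts and those genes 2.57, and the part of this in the difference was not tested. The most abundant transcript differed between libraries in 10 of 31 members, or 32.3%, beside 35.3% of the same genes.

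GSPT1 showed the widest exchange among the release factors. GSPT1-206, which encodes 499 residues, had 6.22 FPKM in static culture against 96.3 FPKM under FSS, while GSPT1-202, which encodes 637 residues, was at 21.4 and 10.9 FPKM. GSPT1-206 made up 15.1% of the gene in static cells and 86.4% in FSS cells. No other GSPT1 transcript was higher in FSS, so the higher call of the gene rests on GSPT1-206. GSPT1-201, which also encodes 499 residues, was lower, at 6.91 and 1.22 FPKM. For ETF1 the full form ETF1-201 of 437 residues went from 30.2 to 91.8 FPKM, and the shorter ETF1-202 of 404 residues from 15.99 to 3.24 FPKM. In EEF1A1 the main transcript EEF1A1-203 was at 2022 and 704 FPKM, whereas EEF1A1-201 was at 10.6 and 130 FPKM and EEF1A1-202 at 5.35 and 60.6 FPKM. These 3 transcripts encode the same length of 462 residues, and EEF1A1-203 held 94.1% of the gene in static cells and 65.4% in FSS cells. Forms of other lengths were higher as well. EEF1A1-210, of 441 residues, was at 20.0 and 66.3 FPKM, and EEF1A1-211, of 426 residues, at 83.0 and 100 FPKM, the latter within 1.5-fold.

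Among initiation factors, transcripts listed at or near 0 in static cells carried part of the FSS level. EIF3J-203 was listed at 0 without flow and at 30.3 FPKM in FSS cells, while EIF3J-201 was at 47.9 and 52.8 FPKM. EIF3G-213, whose coding sequence is incomplete in the annotation, was at 0.871 and 30.1 FPKM, while the main EIF3G-201 was at 69.5 and 44.7 FPKM. EIF3E-201, which encodes 445 residues, was at 108 and 24.9 FPKM, and EIF3E-214, an incomplete model, at 2.26 and 19.1 FPKM. In both genes the main transcript of the static library was lower in FSS. Lower too were EIF3E-206, at 64.5 and 27.1 FPKM, and EIF3E-211, at 24.7 and 14.2 FPKM. EIF4G3-201 was at 20.5 and 3.12 FPKM and EIF4G3-204 at 0.751 and 6.26 FPKM, with 1585 and 1305 residues. EIF4H was level in sum but not in form, since EIF4H-202 of 228 residues was at 107 and 73.5 FPKM and EIF4H-201 of 248 residues at 44.8 and 77.2 FPKM.

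Of the genes above, GSPT1, ETF1, EEF1A1, EIF3G, EIF3E and EIF4G3 had opposite transcripts, while EIF3J and EIF4H did not meet that rule. The other genes with opposite transcripts were EEF1D, EIF1AD, EIF2A, EIF3C, EIF3D, EIF4G1, EIF4G2, EIF5A and EIF6. EEF1D-207, of 257 residues, had 37.3 FPKM in static culture against 0.0155 FPKM under FSS, while EEF1D-238, of 238 residues, was at 0.811 and 17.0 FPKM. EEF1D had 33 listed transcripts, the most of any member, so its split rests on many overlapping models. EIF1AD-201 and EIF1AD-204 encode the same length of 165 residues and were at 0.756 and 6.19 FPKM in static cells and 20.8 and 2.62 FPKM in FSS cells. The exchange between these transcripts of EIF1AD thus left the coding length as it was. EIF1AD-205, an incomplete model of 78 residues, was also higher, at 1.75 and 11.4 FPKM. It held 27.4% of the gene in FSS cells. In EIF4G2, EIF4G2-202 was at 85.2 and 139 FPKM and EIF4G2-232 at 40.3 and 8.17 FPKM. EIF3C-201 and EIF3C-211 each encode 913 residues and went from 52.5 to 23.2 FPKM and from 10.4 to 21.5 FPKM. For EIF3D the FPKM of EIF3D-201 was 81.3 without flow and 42.6 with it, and EIF3D-203, of the same 548 residues, was listed at 0 and 8.97. In EIF3C and EIF3D the exchange was thus between transcripts of equal coding length. EIF2A-214 had 8.12 and 0.873 FPKM and EIF2A-202 was listed at 0 and 8.15 FPKM. For EIF4G1 each of the opposite transcripts was listed in 1 library only, since EIF4G1-221 was at 5.84 FPKM and 0, and EIF4G1-205 at 0 and 11.3 FPKM. EIF6-209 had 16.5 and 0.454 FPKM and EIF6-202 had 4.39 and 16.2 FPKM, but EIF6-209, which held 22.3% of the static sum of EIF6, is the 1 member transcript that was not matched in GENCODE 29. EIF5A-204 and EIF5A-205, both of 154 residues, were at 34.0 and 98.3 FPKM in static cells and 90.4 and 45.0 FPKM in FSS cells.

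**Figure D4:**
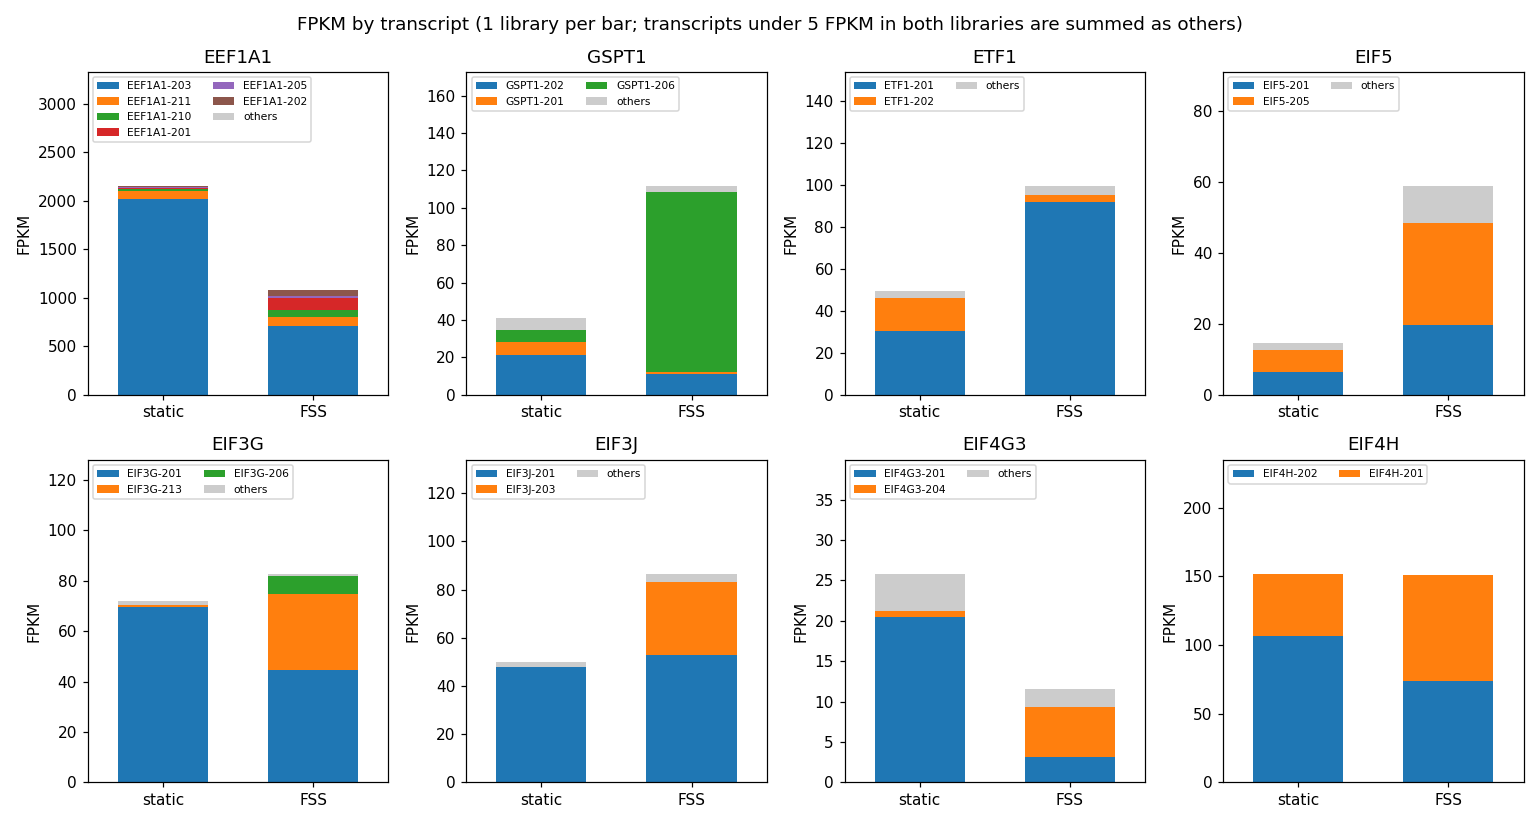
Stacked bars of FPKM by transcript in the static and FSS libraries for 8 members, 1 library per bar, with transcripts under 5 FPKM in both libraries summed as others. GSPT1-206 fills 86.4% of the FSS bar against 15.1% of the static bar, and the EIF4H bars have nearly the same height with a different split.

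The members were next set against their annotated starts, with the grouping chosen after the values were seen. RefSeq windows of 250 bases before and 50 after a start were found for 51 of 65 members, with 67 windows. A C followed by at least 4 pyrimidines at the start was found in 12 of these windows, or 17.9%, beside 4.07% of all 35116 windows. The 12 genes were EEF1A1, EEF1B2, EEF2, EIF2A, EIF2D, EIF2S3, EIF3D, EIF3F, EIF3K, EIF3M, EIF4A2 and EIF4B. Their log2 ratios ran from -1.01 to -0.08 with a median of -0.40, and 4 of 12 were lower and 0 higher. The other 39 matched members ran from -1.69 to 1.95 with a median of 0.07, and 9 were higher and 7 lower. After centring the medians were -0.16 and 0.30. Of 669 genes in the table with such a start 29.7% were lower and 6.73% higher, and their median was -0.30, so a share of 4 in 12 is near that of all genes with such a start.

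**Figure D5:**
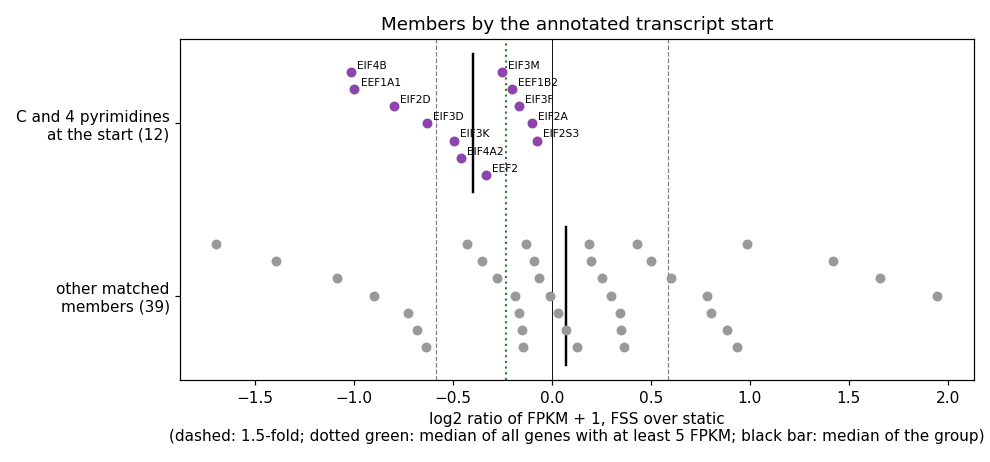
Values on the horizontal axis are log2 ratios, FSS over static, of FPKM + 1 for the 51 members with a RefSeq window, split by whether a window opens with a C and at least 4 pyrimidines (12 genes) or not (39 genes), 1 point per gene. All 12 purple points lie left of 0 as deposited, though EEF1B2, EIF2A, EIF2S3 and EIF3F do not after centring, while the grey points spread from -1.69 to 1.95.

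Motifs in the same windows were looked for on both strands. The E-box CACGTG, which MYC and its partners can bind, was in 12 of 67 windows, or 17.9%, beside 7.26% of all windows. MYC itself had 121 FPKM in static culture and 7.01 FPKM under FSS, and its part in the members' values was not tested. The 12 genes with an E-box window, among them EIF4E, EIF4G1, EIF4B, EIF4H, EIF1B and EIF4A3, had a median log2 ratio of -0.05 with 2 higher and 2 lower. The 39 matched members without it had a median of -0.13 with 7 higher and 9 lower. Of the 8786 genes in the table with a window 10.2% were higher and 29.3% lower. The heat shock core GAANNTTC was in 4 windows, or 5.97%, beside 6.77% of all windows, and these belonged to EEF1A1, EEF1B2, EIF4A2 and EIF5. TGATGNAAN, an amino acid response element, was in 0 of 67 windows beside 3.61% of all windows. A match is a description of these letters and not a site of binding.

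Other genes that control translation were taken from a list of 46, of which 42 were measured. As deposited 11 passed the limit upwards and 5 downwards, centred 16 and 2. Over all genes these shares were 10.5% and 29.5% as deposited and 17.8% and 17.9% centred. The median log2 ratio of the list was -0.02, or 0.22 centred. PPP1R15A, which brings a phosphatase to eIF2 and so reverses the action of the eIF2 kinases, had 31.5 FPKM in static culture against 351 FPKM under FSS (log2 ratio 3.44). DPH2, an enzyme of the diphthamide modification of eEF2, was at 1.91 and 6.71 FPKM. DNAJC3, an inhibitor of eIF2 kinases, was at 8.75 and 22.0 FPKM. PDCD4, an inhibitor of the eIF4A helicase, was at 29.2 and 13.5 FPKM, and PELO, a ribosome rescue factor, at 7.85 and 17.4 FPKM. The list thus held the one gene of translation control whose difference was larger than that of any member, PPP1R15A.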

How the data were processed

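Total RNA of HepG2 cells was sequenced in 2 libraries, 1 for FSS and 1 for static culture, each a mix of 3 replicates. The authors deposited FPKM per transcript, estimated with StringTie and taken out with Ballgown by the study's methods. Tools listed by the submitters' processing notes are STAR 2.5.2b, HISAT2 2.0.5, cutadapt and StringTie, with the build hg19. FPKM is scaled to each library's mapped fragments, so a few genes with a larger share lower the rest. Counts and depth are unknown. There were 0 value columns without a sample.

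FPKM was summed per gene symbol, and a gene was kept if either library reached 0.5 FPKM. Calls used 1.5-fold on log2(FPKM + 1), with no test. An alternative was taken to move a value when it crossed 1.5-fold or shifted by that much. Members and lists were chosen with earlier results of these data known. Values were given for members past 1.5-fold, the extremes of each complex, the 5 most abundant, the eIF2 kinases and members with opposite transcripts, the rest mostly as paralogs or ranges. From each other list the 4 genes farthest from a log2 ratio of 0 are named, and PELO was added as a near tie. The E-box, the heat shock core and the amino acid response element were in the plan, and the pyrimidine start was added later. Only the fold calling was tested on simulated data, with planted changes and an assumed noise. The transcript, centring, start and motif steps were not tested in this way. Start windows came from RefSeq (GRCh38.p14), and 14 members had none, namely EIF3A, EIF3CL, EIF3E, EIF3G, EIF3H, EIF3L, EIF2S2, EIF2AK1, EIF4EBP1, EEF1A2, EEF1D, EEF1AKMT1, EEF1AKMT3 and EEF2KMT. Residues came from the coding sequences of GENCODE 29. The work ran in Python 3.11.15, with matplotlib 3.10.9 for figures and pandas 2.3.3 and numpy 2.4.6 for tables.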

Additional observations from a re-analysis of the deposited data

How the results depend on the processing

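No paired analysis was possible because each group had 1 library, and for the same reason no library could be left out. The count of members called lower was 16 as deposited and 8 after centring, and at a fold of 2 the counts were 3 higher and 6 lower. The median of the elongation factor modifiers, which was -0.35, was -0.85 with a pseudocount of 0.1, -0.62 with each library rescaled to a sum of 1000000 and -1.07 with a filter at 5 FPKM, which left 2 of its 5 genes. The median of the release factors was 1.85 when only the highest transcript of each library was used, which need not be the same transcript in both. The count of members with opposite transcripts was 15, and 21 with a minimum of 1 FPKM. For the other settings the count of higher members was 7 to 13 and that of lower members 11 to 19. The ratio of summed FPKM, 0.795, was 0.909 without EEF1A1 and 0.695 with the highest transcript. Of the 65 single genes 11 crossed the 1.5-fold limit or shifted by that much after centring, 10 with the highest transcript, 8 with a pseudocount of 5 and 3 with no pseudocount, the last added after seeing the data, as were the fits without EEF1A1 and without the eIF2 kinases, which left 10 higher and 14 lower. No member called past the limit changed sign. The cause of these shifts was not tested. The read depth is unknown, so the counting error of genes at low FPKM could not be given.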

Other observations

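Factors of mitochondrial translation share no gene with the members above. Among 12 measured genes 4 passed 1.5-fold downwards and 0 upwards, centred 2 and 0, beside 29.5% and 10.5% of all genes as deposited and 17.9% and 17.8% centred. Their median log2 ratio was -0.31, or -0.08 centred. TUFM, which delivers aminoacyl-tRNA to the mitochondrial ribosome as eEF1A does in the cytosol, had 116 FPKM in static culture against 76.3 FPKM under FSS. TSFM, its exchange factor, was at 34.7 and 17.9 FPKM, GFM2, a recycling factor, at 19.9 and 11.8 FPKM and MTIF3, an initiation factor, at 2.56 and 0.619 FPKM. EEFSEC, which delivers selenocysteine tRNA, was left out by the naming rule and was at 11.4 and 7.86 FPKM, and the readthrough ANKHD1-EIF4EBP3 was at 15.5 and 9.62 FPKM.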
